A study of Mus musculus with 2 samples.

Results

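The mitochondrial ribosomal protein genes were taken as the protein-coding genes of the mouse annotation (GRCm38.p6, the assembly behind mm10) whose symbol is Mrpl or Mrps followed by a number. There were 78 such genes among 21887 protein-coding genes, 49 of them Mrpl genes, named for the large subunit, and 29 Mrps genes, named for the small subunit. A gene was given a YY1 peak where the summit of a deposited peak lay inside the gene or within 1 kb of either gene end. The libraries profile YY1, a zinc finger transcription factor. Their titles call the assay ChIP-seq, while the protocol describes CUT&Tag, in which an antibody-tethered transposase tags DNA in native nuclei, followed by a ChIP-seq library step. Background of CUT&Tag includes tagging of open chromatin, and no value here tells such tagging apart from YY1 binding.

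The cold library came from mature adipocytes of mice exposed to cold for 7 days, and the room temperature library from mature adipocytes of mice kept at room temperature. Both used wild-type male C57 mice 8 to 10 weeks old, the inguinal subcutaneous fat pad, floating adipocytes freed by collagenase, 100000 nuclei and an anti-YY1 antibody. The number of animals behind each library was not stated. The cold list held 1259 peaks and the room temperature list 165. With 1 library per condition, no difference between conditions has a replicate check, and no p-value was computed. Names of cold peaks contain the number 4 and those of room temperature peaks the number 30, with no stated meaning. If these were housing temperatures, the baseline mice would have been warmer than their label says. Of 6 adipocyte marker genes, 4 macrophage and 3 preadipocyte or fibroblast marker genes, 0 had a peak in either library, and of 3 endothelial marker genes 1 had a cold peak, so the lists do not check the cell type, and binding at a gene does not measure its expression.

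Mitochondrial ribosomes translate the few messenger RNAs of the mitochondrial genome, which encode core subunits of the respiratory chain and the ATP synthase. Their RNA is made in mitochondria, while every protein of both subunits is encoded in the nucleus, translated in the cytosol and imported. The small subunit reads the codon and the large subunit joins the amino acids. Brown and beige adipocytes are rich in mitochondria, and cold exposure is the classical stimulus for their recruitment in subcutaneous fat. YY1 is known to bind a motif built around ATGGC close to the starts of many housekeeping genes.

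After cold, 31 of the 78 mitochondrial ribosomal protein genes had a peak (39.7%, exact 95% binomial interval 28.8 to 51.5), where 6.42% of all protein-coding genes had one. At room temperature 2 of 78 had one (2.56%, 0.312 to 8.96), against a background of 0.864%. The share of these genes after cold was 6.19 times that of all protein-coding genes. Among only the 165 strongest cold peaks, as many as the room temperature list holds, 2 of 78 had one (2.56%), against a background of 0.905%. That ratio was 2.83 and rests on 2 genes. The peaks of the 31 genes lay at 32 distinct summits, since Mrpl46 and Mrps11 shared one and Mrpl36 and Mrps18b had a pair each. Both genes of the room temperature library, Mrpl47 and Mrpl36, also had a cold peak, so that 2 of the 31 genes of the cold list (6.45%) were in both. Of all genes with a cold peak, 13.2% were in both lists.

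The subunits gave similar counts. After cold, 19 of 49 Mrpl genes had a peak (38.8%, 25.2 to 53.8) and 12 of 29 Mrps genes did (41.4%, 23.5 to 61.1), shares that lie well inside each other's intervals. At room temperature 2 of 49 Mrpl genes (4.08%, 0.498 to 14) and 0 of 29 Mrps genes had one, and 0 of 29 allows a share of up to 11.9%. A gene's symbol does not always give its place in the ribosome. The proteins of Mrps18a and Mrps30 sit in the large subunit in structures of the mammalian ribosome, and that of Mrps36 is a component of the oxoglutarate dehydrogenase complex. With subunits taken from structure, 21 of 51 large subunit genes (41.2%) and 10 of 26 small subunit genes (38.5%) had a cold peak. All these intervals cover counting error only.

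**Figure D1:**
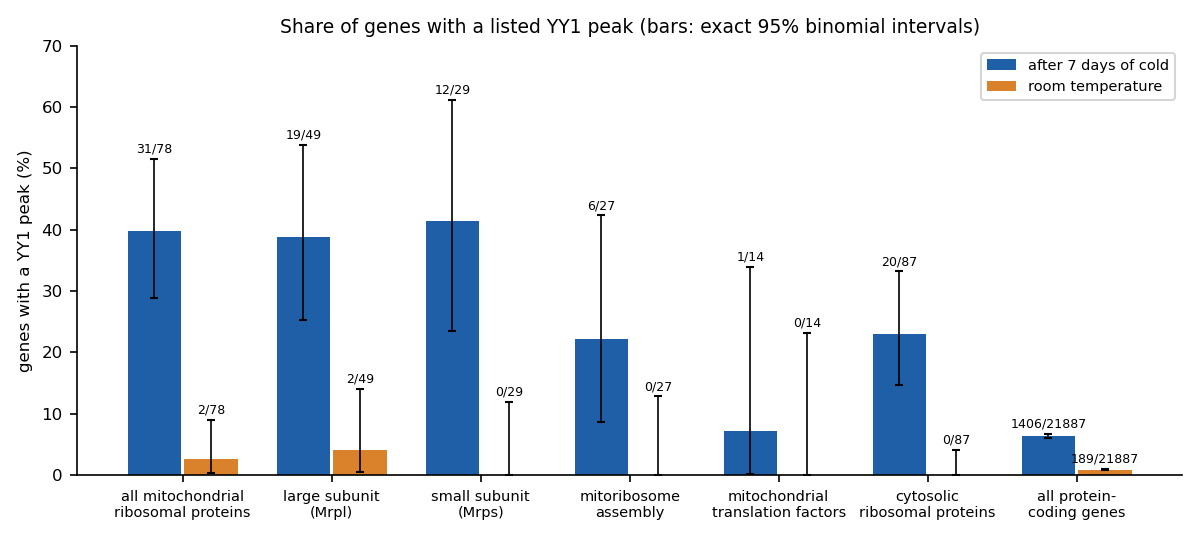
Percentage of genes in each class with a listed YY1 peak, in the cold library (blue, left) and the room temperature library (orange, right), with exact 95% binomial intervals and the counts above them. The cold bars of the large (38.8%) and small subunit (41.4%) stand at about the same height and above that of all protein-coding genes (6.42%), while every room temperature bar is under 5%.

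The strength of a peak is given as the number of fragments over its summit, recovered from the deposited fold and p-value, with its exact 95% Poisson interval. The strongest cold summit of each of the 31 genes, taken by the deposited −log10 q, carried a median of 24 fragments (quartiles 17 and 28.5, range 9 to 84). Over the whole set of 1406 genes with a cold peak the median was 21 (quartiles 15 and 30). At least 20 fragments were found at 20 of the 31 genes (64.5%), and at 55.9% of all genes with a cold peak. The medians of the subunits were 24 fragments for 19 Mrpl genes and 25 for 12 Mrps genes. Of the 32 distinct summits 21 ranked in the stronger 50% of the cold list and 2 in its strongest 10%. Peaks at these genes were thus frequent and mostly of middling strength.

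The strongest was the peak between Mrpl47, whose protein lies at the exit of the nascent peptide tunnel, and the complex I subunit gene Ndufb5 (chromosome 3, 32736414 to 32737260). It carried 84 fragments after cold (67.0 to 104), rank 20 of the list, and 20 at room temperature (12.2 to 30.9). Its cold interval lay wholly above those of the other 30 genes. Mrps18a, one of 3 paralogs of a bacterial small subunit protein, came next with 42 fragments (30.3 to 56.8; chromosome 17, 46110854 to 46111535), an interval wholly above those of 11 genes. Below these the order is loose: at 31 fragments (21.1 to 44.0) only 3 genes had intervals wholly below.

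**Figure D2:**
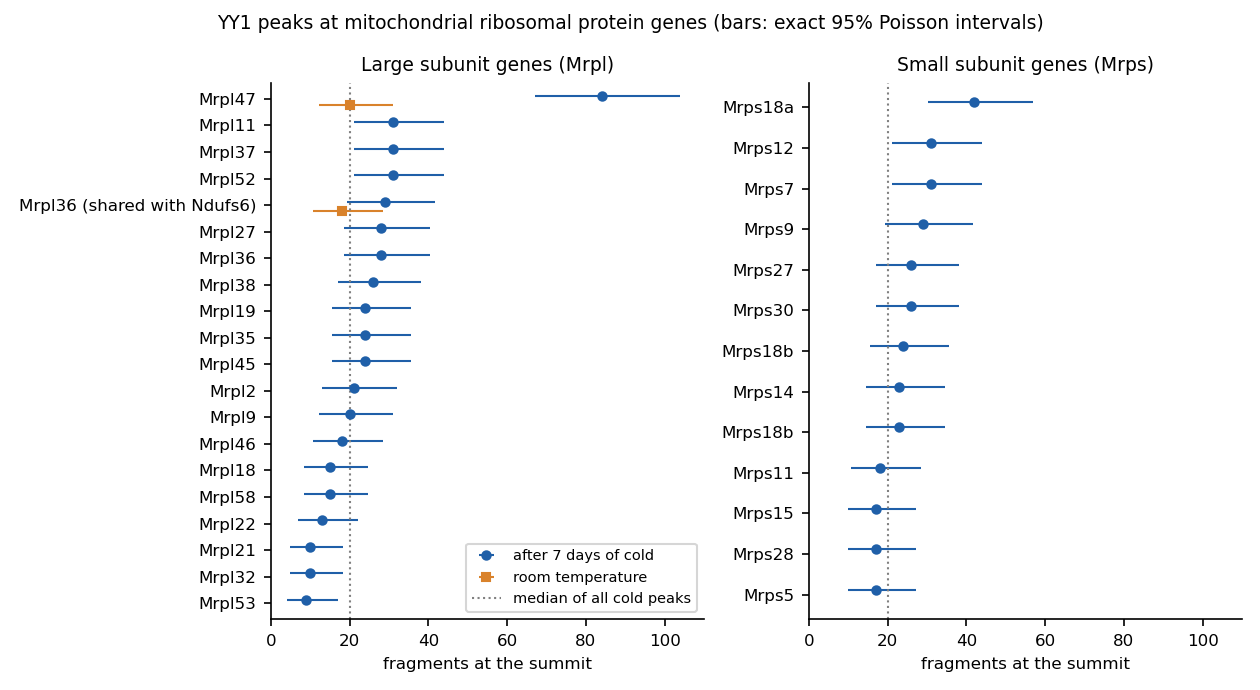
Fragments at each cold summit of the mitochondrial ribosomal protein genes (blue circles) and at the overlapping room temperature summits (orange squares), with exact 95% Poisson intervals, for large subunit (left) and small subunit genes (right). Mrpl47 with 84 fragments stands apart, most others lie between 15 and 31, and the dotted line marks the median of 20 over all cold peaks.

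Among large subunit genes, 31 fragments (21.1 to 44.0) were found at Mrpl11, whose bacterial counterpart forms the base of the stalk that recruits translation factors, at Mrpl37 and at Mrpl52, both mitochondria-specific. Mrpl27, whose protein reaches towards the peptidyl transferase centre, had 28 fragments (18.6 to 40.5). Mrpl36 had 28 (18.6 to 40.5) at its annotated start (chromosome 13, 73330870 to 73331187), its strongest summit by −log10 q. Over a higher local background it had 29 (19.4 to 41.6) at another summit, 117 bp before the upstream end of its gene record. Mrpl38 had 26 (17.0 to 38.1), and Mrpl19, Mrpl35 and Mrpl45 had 24 each (15.4 to 35.7). The protein of Mrpl45 helps to hold the ribosome at the inner membrane. Mrpl2, whose protein lies near the peptidyl transferase centre, had 21 fragments (13.0 to 32.1), Mrpl9 had 20 (12.2 to 30.9), and Mrpl46 had 18 (10.7 to 28.4). Weaker peaks stood at Mrpl18 and at Mrpl58, a peptidyl-tRNA hydrolase built into the large subunit, with 15 fragments each (8.4 to 24.7), and at the tunnel protein gene Mrpl22 with 13 (6.92 to 22.2). The weakest were those of Mrpl21 and Mrpl32 with 10 fragments each (4.8 to 18.4) and Mrpl53 with 9 (4.12 to 17.1). The protein of Mrpl32 is known for its cleavage by an inner membrane protease before it joins the ribosome. The lowest pileup anywhere in the cold list was 6.

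Among small subunit genes, 31 fragments (21.1 to 44.0) were found at Mrps12, whose protein lies at the decoding centre, and at Mrps7, a protein of the subunit's head. Mrps9 had 29 (19.4 to 41.6). Mrps27, which encodes a pentatricopeptide repeat protein, and Mrps30 had 26 each (17.0 to 38.1). Mrps18b had 24 fragments (15.4 to 35.7) at its summit inside the gene and 23 (14.6 to 34.5) at another one 523 bp outside it. Mrps14 had 23 (14.6 to 34.5) and Mrps11 18 (10.7 to 28.4). The weakest were Mrps5, Mrps15 and Mrps28, with 17 fragments each (9.90 to 27.2). No small subunit gene was as weak as the 6 weakest large subunit genes, which had 9 to 15 fragments, but the intervals overlap.

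At room temperature the Mrpl47 summit had rank 30 of 165, and the cold pileup was 4.20 times the room temperature one. The other peak in both lists lay at the end of Mrpl36 that faces the complex I subunit gene Ndufs6. It carried 29 fragments after cold (19.4 to 41.6; chromosome 13, 73328224 to 73328524) and 18 at room temperature (10.7 to 28.4), a ratio of 1.61. These counting intervals overlap, whereas those of Mrpl47 do not. They are intervals of raw counts, not scaled for library depth, so neither case measures a change with cold. Over the 154 shared peaks of low background the median ratio was 3.31 (quartiles 2.63 and 4.18), and 3 of them had a lower ratio than the Mrpl36 peak. The summits of both libraries lay 47 bp apart at Mrpl47 and 44 bp apart at Mrpl36.

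The other 29 genes with a cold peak had no entry at room temperature. A missing entry is not a measured 0, and the lowest pileup listed at room temperature was 6 fragments. Of the 32 cold summits, a room temperature peak overlapped 0 of 10 with under 20 fragments, 1 of 15 with 20 to 29, 0 of 6 with 30 to 49 and 1 of 1 with 50 or more. In the whole cold list it overlapped 15 of 588 (2.55%), 29 of 371 (7.82%), 57 of 209 (27.3%) and 63 of 91 (69.2%) in the same classes, so that stronger cold peaks were more often listed in both libraries. With 1 library each, condition and library cannot be told apart.

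Promoters were read from RefSeq sequences (GRCm38.p6) that run from 250 bases before each annotated start to 50 after it, which 69 of the 78 genes had. The motif AANATGGC was searched on both strands, where N is any base. The promoters of the 4 strongest genes by −log10 q and of Mrpl36 at its own start are printed below from 100 bases before the start to base 30 after it, 5′ to 3′ in the direction of the gene. Capitals mark the motif on either strand.
Mrpl47, chr3:32736726-32736855, minus strand: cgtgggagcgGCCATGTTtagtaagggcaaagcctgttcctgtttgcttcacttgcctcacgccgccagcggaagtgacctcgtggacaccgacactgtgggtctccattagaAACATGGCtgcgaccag
Mrps18a, chr17:46110904-46111033, plus strand: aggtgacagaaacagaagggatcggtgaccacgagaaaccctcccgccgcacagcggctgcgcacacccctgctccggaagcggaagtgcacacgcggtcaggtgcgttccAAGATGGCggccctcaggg
Mrps7, chr11:115604040-115604169, plus strand: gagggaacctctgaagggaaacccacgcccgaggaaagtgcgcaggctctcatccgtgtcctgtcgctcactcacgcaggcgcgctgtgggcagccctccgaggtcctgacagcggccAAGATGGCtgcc
Mrpl11, chr19:4962206-4962335, plus strand: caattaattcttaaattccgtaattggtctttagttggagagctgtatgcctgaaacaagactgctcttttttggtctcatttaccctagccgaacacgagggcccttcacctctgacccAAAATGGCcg
Mrpl36, chr13:73330909-73331038, plus strand: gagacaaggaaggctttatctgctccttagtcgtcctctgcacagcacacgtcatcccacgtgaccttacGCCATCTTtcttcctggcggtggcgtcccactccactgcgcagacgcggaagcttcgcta

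In 4 of these 5 promoters the motif stood in the direction of the gene within the first 30 transcribed bases, with its first base at position 14 in Mrpl47, 12 in Mrps18a, 19 in Mrps7 and 21 in Mrpl11, counted from 1 at the start. Mrpl47 held it also on the other strand before the start, with its first base at positions -90 and -242, the second of which lies outside the printed bases. In Mrpl36 it stood on the other strand at position -30. These bases of Mrpl36 lie under its summit at the start, which was listed only after cold, and not under the peak in both lists. The cold summit of that peak lies at position -2623 from the Mrpl36 start, at Ndufs6.

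Of the 28 genes with a cold peak and a promoter entry, 16 held the motif (57.1%), and of the 41 without a cold peak 5 did (12.2%). Across all protein-coding genes with an entry 7.46% held it. Genes with a cold peak held it in 45.5% of 1168 cases and genes without one in 4.74% of 16324, a difference in the same direction. The motif stood in sense within the 50 bases after the start in 12 of the 28 genes with a peak (42.9%), as it did in 20.1% of all genes with a cold peak and 1.01% of those without. Its first base lay at position 7 to 28, with a median of 17.5. These 12 are shown with 8 bases before the motif and 6 after it, to show the letters at the open base and around the motif.
Mrpl11, chr19:4962318-4962339, plus strand: tctgacccAAAATGGCcgcgcc
Mrpl18, chr17:12916072-12916093, minus strand: ccacagttAACATGGCtgcgac
Mrpl21, chr19:3283061-3283082, plus strand: actgtggaAACATGGCtgctgc
Mrpl27, chr11:94653791-94653812, plus strand: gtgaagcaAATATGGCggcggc
Mrpl35, chr6:71823748-71823769, minus strand: caggctgcAAGATGGCggcttc
Mrpl37, chr4:107066827-107066848, minus strand: cacgggcaAAGATGGCggcgtc
Mrpl47, chr3:32736729-32736750, minus strand: ccattagaAACATGGCtgcgac
Mrpl58, chr11:115403764-115403785, plus strand: gggaggtgAACATGGCgaccgc
Mrps7, chr11:115604150-115604171, plus strand: cagcggccAAGATGGCtgcccc
Mrps18a, chr17:46111007-46111028, plus strand: tgcgttccAAGATGGCggccct
Mrps27, chr13:99344792-99344813, plus strand: tgcgctccAAGATGGCggctcc
Mrps30, chr13:118387224-118387245, minus strand: ggcgggcgAAAATGGCggcggc

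The open base of the motif was G in 5 of the 12 genes, C in 4, A in 2 and T in 1. In 11 of the 12 the cold summit lay downstream of the motif, with the motif's centre 3.5 to 76.5 bp before the summit. At Mrpl47 it lay 182.5 bp on the other side, towards Ndufb5. The other 4 genes with both a motif and a peak were Mrpl32, Mrpl36, Mrps11 and Mrps12, each with the motif on the other strand before the start.

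The same sense motif was found after the start of 4 genes that had no listed peak in either library, with its first base at position 17 to 37. They are shown in the same way.
Mrpl42, chr10:95501909-95501930, minus strand: attgaagcAAGATGGCgagcgc
Mrpl49, chr19:6057726-6057747, minus strand: gaggcgccAAGATGGCagcagc
Mrpl51, chr6:125192210-125192231, plus strand: taaggcccAAAATGGCtcctct
Mrps24, chr11:5707652-5707673, minus strand: gccggcccAAGATGGCgtggtc

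Another gene without a peak, Mrpl24, held the motif on the other strand before its start. Whether YY1 binds these 5 promoters below the listing threshold cannot be read from the lists.

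**Figure D3:**
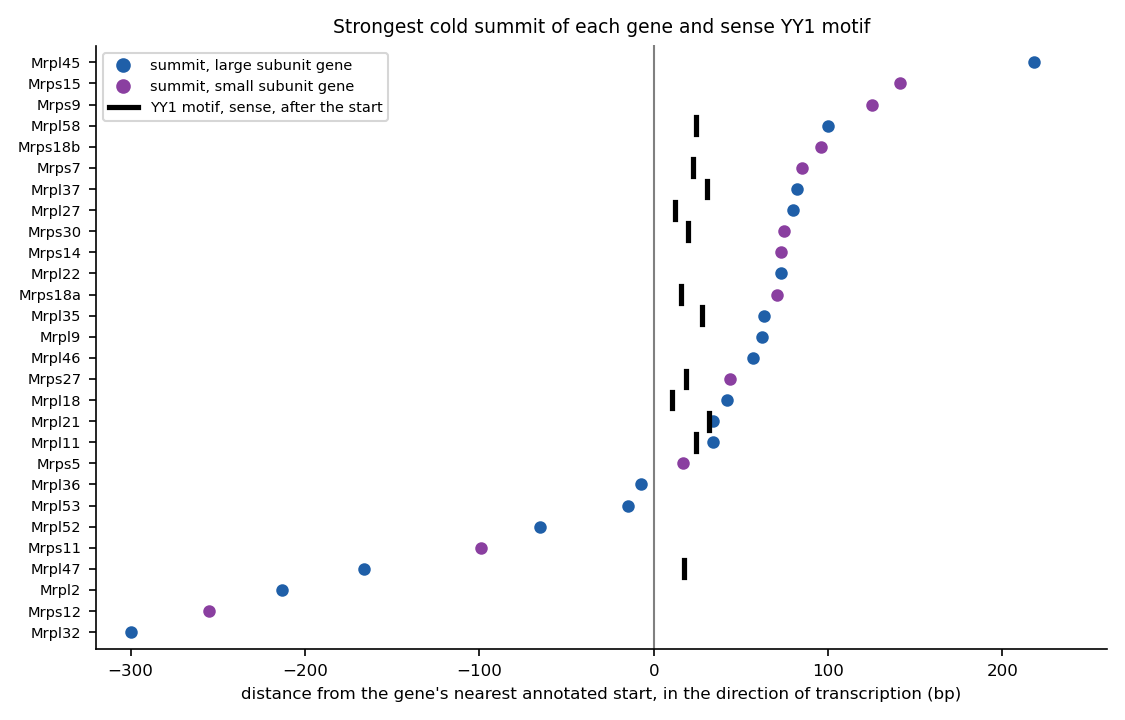
Position of the strongest cold summit of the 28 genes with a promoter entry, relative to the nearest annotated start and in the direction of transcription (blue, large subunit; purple, small subunit), with black ticks at the centre of the sense YY1 motif in 12 of them. In 20 genes the summit lies 17 to 218 bp downstream of the start, and in 8 it lies 7 to 300 bp upstream.

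The summits lay close to the starts of transcription and mostly on the transcribed side. In 20 of the 28 genes with an entry the strongest cold summit was 17 to 218 bp downstream of the nearest annotated start, with a median of 73 bp. In the other 8 it was 7 to 300 bp upstream, with a median of 132.5 bp. Of all 1168 genes with a cold peak and an entry, 48.5% had their summit up to 250 bp downstream and 23.5% up to 300 bp upstream. These limits take in all 28 members, so this comparison cannot show that members lie closer to their starts. At Mrpl18, Mrpl22, Mrpl36 and Mrpl45 the nearer end of the gene record lay 1011 to 1738 bp from the summit, but the nearest annotated start lay 42, 73, 7 and 218 bp away. Mrpl19, Mrpl38 and Mrps28, which have no promoter entry, had their summits 77, 177 and 141 bp inside the gene.

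Other letters for YY1 also gave a higher share in members with a peak than in members without. The shorter ATGGCG, which overlaps AANATGGC in ATGGC, was in 14 of 28 genes with a peak (50%), in 5 of 41 without (12.2%) and in 12.4% of all. Over all protein-coding genes with an entry, 46.8% with a cold peak and 9.94% without held it. The longer AAGATGGCG, which contains AAGATGGC, was in 6 of 28 (21.4%), in 2 of 41 (4.88%) and in 2.14% of all. Over all protein-coding genes with an entry, the shares were 19.8% with a cold peak and 0.876% without. Members with a peak were thus close to genes with a cold peak in general. The letters CCGGAAG, a core of ETS factors such as the nuclear respiratory regulator GABP, were in 11 of 28 genes with a peak (39.3%) and in 15 of 41 without (36.6%), where all protein-coding genes had it in 12.9%. The core GCATGCGC of NRF1, another regulator of nuclear genes for mitochondria, was in 4 of 28 (14.3%) and 4 of 41 (9.76%), where all had it in 3.94%. Over all protein-coding genes with an entry, 23.2% with a cold peak and 12.2% without held the ETS letters. For NRF1 these shares were 8.13% and 3.64%. Within the mitochondrial ribosomal protein genes, the ETS letters were thus about as frequent with and without a YY1 peak, and the YY1 letters were not. A match is no proof of a bound site, and no match says only that the letters are not in these bases.

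**Figure D4:**
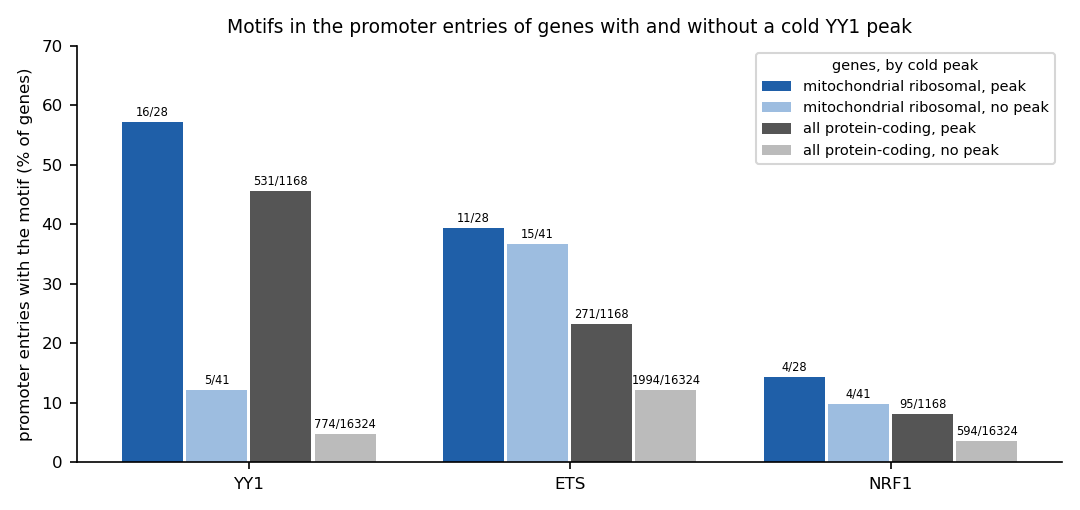
Percentage of genes whose promoter entry holds the YY1 (AANATGGC), ETS (CCGGAAG) or NRF1 (GCATGCGC) letters on either strand, for mitochondrial ribosomal protein genes with and without a cold peak (dark and light blue) and for protein-coding genes in general with and without one (dark and light grey), with the counts above the bars. The YY1 letters were in 57.1% and 12.2% of the members with and without a peak, the ETS letters in 39.3% and 36.6%.

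Of the 31 genes, 16 (51.6%) had a cold summit that also reached another protein-coding gene, by the same rule of 1 kb, and of all genes with a cold peak 39.7% did. These were 10 of 19 Mrpl genes and 6 of 12 Mrps genes. The 16 shared summits named 14 neighbours outside the family. Strands were known for both genes at 15 summits, and at all 15 the genes lay on opposite strands. Divergent neighbours were counted between the ends of gene records and not between annotated starts. Among members with an entry, 14 of 28 with a cold peak (50%) and 13 of 41 without one (31.7%) had a divergent neighbour within 1 kb of their start side. Mrpl18, which shares its summit with Tcp1 on the opposite strand, counted as without one, since its annotated start lies inside its gene record. A divergent neighbour was thus also found among members with no listed peak. Strands, divergent neighbours and the side of the summit were not counted over all genes, so these values have no background.

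Some of the 14 neighbours outside the family themselves serve mitochondria. How often this holds for neighbours at other shared cold summits was not counted. Mrpl47 faces Ndufb5 and Mrpl36 faces Ndufs6, both complex I subunit genes, and these were the members listed at room temperature. Mrps12 shares its summit with Sars2, the mitochondrial seryl-tRNA synthetase gene, at 31 fragments, and Mrps27 with Ptcd2, which encodes a mitochondrial RNA processing protein, at 26. Mrpl46 and Mrps11 lie 42 bp apart and share 1 summit of 18 fragments (chromosome 7, 78782842 to 78783224), so that a large and a small subunit gene stand on the same peak. The other neighbours were Cyb5rl beside Mrpl37, the Golgi adaptor gene Gga3 beside Mrps7, the DNA endonuclease subunit gene Eme1 beside Mrpl27, and the phosphatase regulator gene Ppp1r10 beside Mrps18b. The kinesin light chain gene Klc4 lay beside Mrpl2, the zinc finger gene Zfp661 beside Mrps5, and the chaperonin subunit gene Tcp1 beside Mrpl18. The helicase gene Ighmbp2 lay beside Mrpl21, the proteasome subunit gene Psma2 beside Mrpl32 and Ccdc142 beside Mrpl53.

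**Figure D5:**
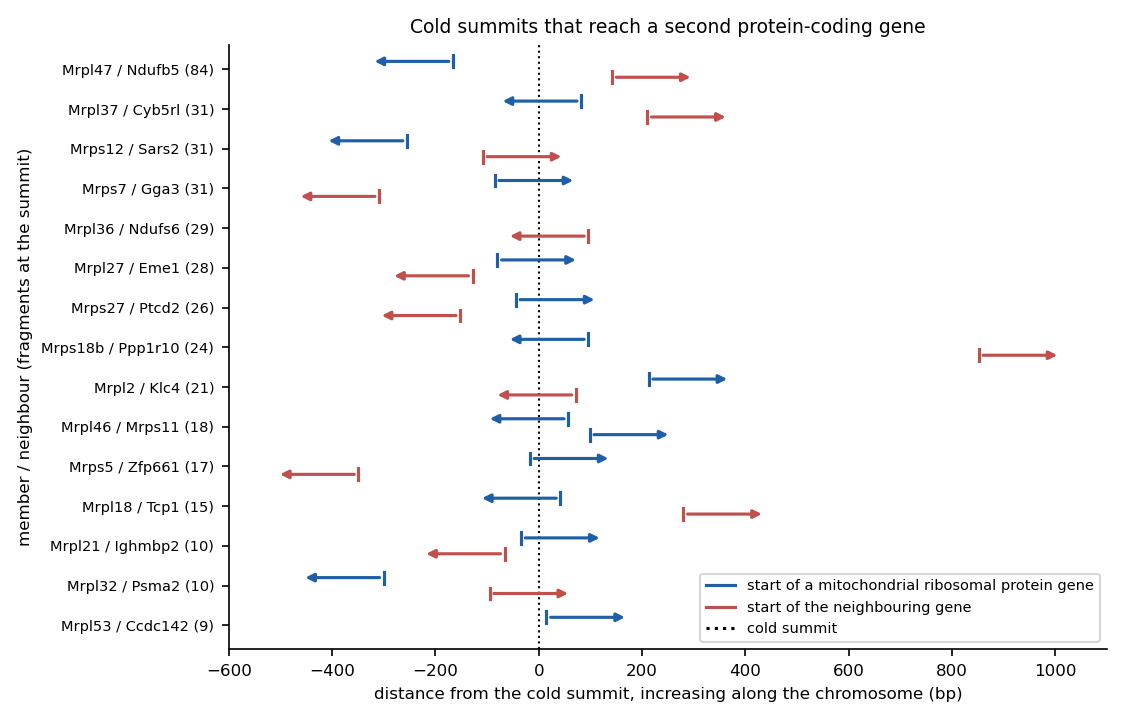
Annotated starts (ticks) and direction of transcription (arrows of fixed length) around each cold summit that reaches both a mitochondrial ribosomal protein gene (blue) and another protein-coding gene (red, or blue for the pair Mrpl46 and Mrps11), in bp from the summit, with the summit's fragments in parentheses. The weaker of both Mrps18b summits is left out, the Mrpl36 start lies outside the frame, and Ccdc142 has no annotated start here. Except at Mrpl47 and Mrpl53, the summit lies downstream of one of the starts shown.

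The side of the summit differed among these pairs. At 9 of the 15 summits it lay downstream of the start of the ribosomal protein gene, at 4 downstream of the neighbour's start (Sars2, Ndufs6, Klc4 and Psma2), and at 2 upstream of both, which were the Mrpl47 peak and the weaker Mrps18b peak. At Sars2, Ndufs6 and Psma2 the motif AANATGGC stood in sense, with its first base at positions 46, 34 and 31 after the neighbour's start. At Mrpl46 its first base was at position 59. In each of these cases the motif was on the strand of the gene in which the summit lay. The shared peaks at Klc4, Mrps5 and Mrps18b held no motif in the bases covered by promoter entries. At Mrps27 a motif in sense stood after each start, at position 15 of Mrps27 and position 7 of Ptcd2, and the summit lay 44 bp into Mrps27. The Mrpl47 interval held 3 motifs, 2 of them in the direction of Ndufb5 and before both starts, and 1 after the start of Mrpl47.

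Of the 32 peaks, 27 had at least 50 bases in a promoter entry, and 17 of these held the motif (63.0%), against 62.6% of 777 such peaks in the cold list. In 16 of the 17 (94.1%) a motif stood in sense within the first 100 bases of a gene that the summit reached, 13 times the ribosomal protein gene and 3 times only its neighbour. Of the 486 cold peaks with a motif, 246 had it so placed (50.6%). The entries end 50 bases after each start, so motifs further in are seen only where another entry covers them, as at Mrpl46. Such cover can differ between these peaks and the whole cold list. The placement was not counted for cytosolic ribosomal protein genes, and the difference was not tested.

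The 47 genes without a peak were 30 Mrpl genes and 17 Mrps genes. The Mrpl genes were Mrpl1, Mrpl3, Mrpl4, Mrpl10, Mrpl12 to Mrpl17, Mrpl20, Mrpl23, Mrpl24, Mrpl28, Mrpl30, Mrpl33, Mrpl34, Mrpl39 to Mrpl44, Mrpl48 to Mrpl51, Mrpl54, Mrpl55 and Mrpl57. The Mrps genes were Mrps2, Mrps6, Mrps10, Mrps16, Mrps17, Mrps18c, Mrps21 to Mrps26, Mrps31 and Mrps33 to Mrps36. Among them are Mrpl12, which encodes the stalk protein that binds translation factors, and Mrpl10, its anchor. In 46 of the 47 no cold summit lay within 10 kb. The exception was Mrpl20, 3749 bp from a cold summit with 25 fragments (16.2 to 36.9) and 3783 bp from a room temperature summit with 9 (4.12 to 17.1), both of which belong to the cyclin gene Ccnl2. Of the 3 paralogs of the bacterial small subunit protein, Mrps18a and Mrps18b had a peak and Mrps18c did not.

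Some proteins of the mitochondrial ribosome have other names. Of 5 such genes 4 had a cold peak (80.0%, 28.4 to 99.5), Chchd1 with 23 fragments (14.6 to 34.5), Ptcd3 with 21 (13.0 to 32.1), Gadd45gip1 with 15 (8.4 to 24.7) and Dap3 with 13 (6.92 to 22.2), and Aurkaip1 had none. Gadd45gip1, whose summit was shared with Dand5, was also listed at room temperature, with 10 fragments (4.8 to 18.4). Of 27 assembly factor genes 6 had a cold peak (22.2%, 8.62 to 42.3) and 0 had one at room temperature. Rcc1l, which acts in assembly of the large subunit, had 52 fragments (38.8 to 68.2), Eral1, a chaperone of the small subunit's RNA, 27 (17.8 to 39.3), and Fastkd2 24 (15.4 to 35.7). Rpusd4 had 18, the RNA helicase gene Dhx30 17 and the RNA methyltransferase gene Mrm3 11. Of 14 translation factor genes 1 had a cold peak (7.14%, 0.181 to 33.9), Slirp, an RNA-stabilising protein gene, with 20 fragments (12.2 to 30.9). The initiation, elongation and release factor genes Mtif2, Tufm, Gfm1 and Mtrf1 had none, and neither did any of 6 mitochondrial transcription genes, among them Tfam and Polrmt. With 0 of 6 the interval reached 45.9%, so these small lists give wide intervals. Of all protein-coding genes 6.42% had a cold peak and 0.864% a room temperature peak. The cold share of all genes lies inside the intervals of the translation factor and transcription lists. Their missing peaks thus do not set these lists apart from genes in general.

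Cytosolic ribosomal protein genes, which encode the ribosome of the cytoplasm, were picked by symbol and counted in the same way for comparison. Picking by symbol also took in genes such as Rpl22l1 and Rps27l, named as like a ribosomal protein gene. Of 87 genes so picked 20 had a cold peak (23%, 14.6 to 33.2), Rpl22l1 and Rps27l among them, and 0 a room temperature peak. Their share was 3.58 times that of all protein-coding genes, and their interval overlaps that of the mitochondrial ribosomal protein genes. The median of the strongest summits was 24 fragments in the mitochondrial set and 17 in the cytosolic set (quartiles 13 and 24.2). Of the 20 genes 7 shared the summit with another protein-coding gene. The comparison of YY1 letters turned with the letters searched. AANATGGC was in 16 of 28 mitochondrial ribosomal protein genes with a peak (57.1%) and 6 of 14 cytosolic ones (42.9%), ATGGCG in 14 of 28 (50%) and 8 of 14 (57.1%), and AAGATGGCG in 6 of 28 (21.4%) and 3 of 14 (21.4%). None of these differences was tested.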

How the data were processed

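The 2 libraries, 1 per condition, were grouped by their labels. The tools that the submitters' processing notes name are deepTools, MACS2, SAMtools, BWA and DESeq2, and the build is mm10. Their versions and settings, any control and the treatment of duplicates were not stated. For each library a separate peak list was deposited. Each entry has a deposited score (10 times the −log10 p, rounded down, in all 1424 entries), the authors' fold enrichment ratio at the summit, a deposited −log10 p-value and −log10 q-value, and a summit position. Total depth is unknown.

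Fragments at each summit were computed from fold = (pileup + 1) / (background + 1) and the Poisson p; a whole number matched within 0.0002 in all 1424 entries, 1 of which had another match. Of simulated pileups, 1259 of 1259 (cold) and 165 of 165 (room temperature) were recovered, and 200 of 200 planted summits at the window's edge were assigned. Python 3.11.15, NumPy 2.4.6 and SciPy 1.17.1 were used. Genes came from a RefSeq table and promoter entries with strand from RefSeq, both GRCm38.p6. Coordinates count from 1. Cytosolic ribosomal protein genes were Rpl and Rps genes followed by a number, without the Rps6k kinases. Lists held known subunits, assembly and translation factors; 1 symbol (Mtrfr) had no match and 1 gene was named under 2 symbols. Every member with a peak was named, with its neighbours. The members and lists were chosen with earlier results of these data known, and the classes by structure came from general knowledge after the counts were seen. No test between conditions or gene classes was run. Intervals are exact Clopper-Pearson or Poisson 95% intervals; they cover counting error only, since fragments can include PCR copies and genes sharing a summit are not independent. Alternatives covered the window, the threshold, the list length, the assignment, the motif and the measure of strength.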

Additional observations from a re-analysis of the deposited data

How the results depend on the processing

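No paired analysis was possible because there is 1 library per condition, and no library could be left out. Of 44 alternative values, 40 stayed within the reported interval, quartiles or 1.5 times the reported count. With only the 165 strongest cold peaks, as many as the room temperature list has, the share of these genes with a cold peak was 2.56% in place of 39.7%, 2.04% in place of 38.8% for Mrpl genes and 3.45% in place of 41.4% for Mrps genes, while that of all protein-coding genes was 0.905% in place of 6.42%, so the ratio to all genes was 2.83 in place of 6.19. The shorter list itself lowers these shares, so the higher cold count cannot be told apart from the longer cold list. With AAGATGGCG in place of AANATGGC, 11.6% in place of 30.4% of the 69 promoters held the motif, since the longer letters match fewer sites. With each summit given only to its nearest gene end, at any distance, 24 genes had a cold peak and 1 a room temperature peak. Several summits lie nearer to the neighbour, which takes genes out of the count. With no distance limit a far summit can also add a gene, so the 24 are not simply a part of the 31. Windows of 500 bp and 3 kb, a −log10 q of at least 3 and whole intervals left the counts at 31 and 2. Taking subunits from structure (41.2% and 38.5%) and counting members that share a summit as 1 (39.0%) were chosen after seeing the data. Unknown depth and the listing threshold limit what a missing peak can say.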
